A study of Caenorhabditis elegans with 12 samples.

Results

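The FMRFamide-like peptide genes of *Caenorhabditis elegans* carry the *flp-* prefix, and every gene of the WBcel235 annotation whose symbol starts with *flp-* was taken as a member. This gave 31 genes out of the 22060 genes in the deposited tables. The 31 genes have 42 isoforms, and 9 of the genes have more than 1. Of the 31 genes, 30 passed the filter on low counts and were tested among 14577 genes. The remaining gene, *flp-23*, was all but undetected: 2 counts in replicate 1 of sixth-day *fog-2(lf)* and 1 count in replicate 2 of sixth-day wild type were its only counts.

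FMRFamide-like peptides are short neuropeptides that share an amidated C terminus ending in arginine and phenylalanine. Each *flp* gene encodes a precursor that is cut in the dense-core vesicles of neurons, trimmed and amidated, and the released peptides act on G-protein coupled receptors of neurons, muscle, gut and gonad. In *C. elegans* these peptides are known for effects on locomotion, feeding, sleep, egg laying, male mating and fat storage.

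PolyA RNA of whole adults was sequenced to separate the effects of age from those of sperm loss. There were 4 groups of 3 biological replicates each. The groups were sixth-day *fog-2(lf)*, first-day *fog-2(lf)*, sixth-day wild type and first-day wild type. The *fog-2(lf)* animals were strain JK574, which carries the *fog-2(q71)* allele in an N2 background. Its XX animals make oocytes but no sperm. Wild type was N2, whose XX animals are self-fertile hermaphrodites. First-day adults were taken before embryos were visible. Wild type had laid all its eggs and was depleted of sperm by the sixth day. The paper states that 3 of the 4 groups had no sperm, first-day wild type being the exception. All groups were synchronized, kept at 20 °C on plates with OP50 bacteria and lysed as pools of many worms, so a value is a mean over the cells of whole worms, and fewer cells of a type cannot be told apart from less RNA per cell.

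Estimated counts summed to 21162593 to 38775999 per library. Levels are given as CPM (counts scaled to a fixed library total) after TMM scaling, which sets the bulk of the genes to the same level in all libraries, or as TPM, which is per transcript length, where genes are compared with each other. The *fog-2* transcript stood at 3.2 to 3.57 CPM in the *fog-2(lf)* libraries of the sixth day and 3.92 to 4.86 CPM in those of the first day. It stood at 53.5 to 58.5 CPM in the wild type libraries of the sixth day and 44.5 to 52.8 CPM in those of the first day. The libraries thus matched their genotype labels, while this transcript does not check the labels of age. Replicate 2 of first-day wild type stood apart from its group. Its summed level of 9 sperm genes was 41.1 CPM, against 4.28 and 6.56 CPM in replicates 1 and 3. That sum was 4.24 to 4.78 CPM in sixth-day *fog-2(lf)*, 4.51 to 8.02 CPM in first-day *fog-2(lf)* and 3.61 to 5.65 CPM in sixth-day wild type. Of the first-day wild type libraries, only replicate 2 thus lay above all libraries of the groups without sperm. The 18 pan-neuronal genes used to check for neuronal RNA summed to 679 to 748 CPM in the sixth-day and 705 to 739 CPM in the first-day libraries of *fog-2(lf)*, and to 751 to 834 CPM in the sixth-day and 738 to 766 CPM in the first-day libraries of wild type. The 7 markers of male sensory neurons summed to 0.321 to 0.706, 0.666 to 0.882, 0.989 to 1.55 and 0.371 to 0.432 CPM in the same 4 groups, and 2 of the 7 passed the filter. The pan-neuronal sums were carried by a few high genes, such as *snb-1* at 272 CPM and *unc-57* at 169 CPM in first-day wild type. They do not show whether the lower genes of that list kept their level. With age in wild type, 12 of the 18 genes had a positive log2 fold change and 6 a negative one.

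*flp-6*, which is known to be made in several sensory neurons, had the highest mean TPM of the members in 3 of the 4 groups. In the fourth group, first-day *fog-2(lf)*, it averaged 16.3 TPM, after *flp-28* at 35.3 TPM and *flp-22* at 26.3 TPM. In sixth-day *fog-2(lf)*, *flp-6* had 65.7, 76.4 and 84.2 TPM in the 3 libraries. The next members in that group were *flp-28* at 30.1 TPM, *flp-22* at 28.1 TPM, *flp-1* at 14.3 TPM, *flp-24* at 14.2 TPM and *flp-18* at 13.3 TPM on average. The 31 genes summed to 283, 279 and 327 TPM in sixth-day *fog-2(lf)* and to 222, 207 and 249 TPM in first-day *fog-2(lf)*. They summed to 423, 369 and 351 TPM in sixth-day wild type and to 299, 168 and 325 TPM in first-day wild type.

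Part of the spread in these sums was that of *flp-6* itself. It made up 23.2%, 27.4% and 25.7% of the family TPM in sixth-day *fog-2(lf)* and 7.7%, 7.22% and 6.79% in first-day *fog-2(lf)*. In sixth-day wild type its share was 27.9%, 28% and 29.3%. In first-day wild type it was 46.9% and 34.9% in replicates 1 and 3 but 15% in replicate 2, the library that stood apart. Without *flp-6*, the other members summed to 218, 203 and 243 TPM in sixth-day *fog-2(lf)*, 205, 192 and 232 TPM in first-day *fog-2(lf)*, 305, 266 and 248 TPM in sixth-day wild type and 159, 143 and 212 TPM in first-day wild type.

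**Figure D1:**
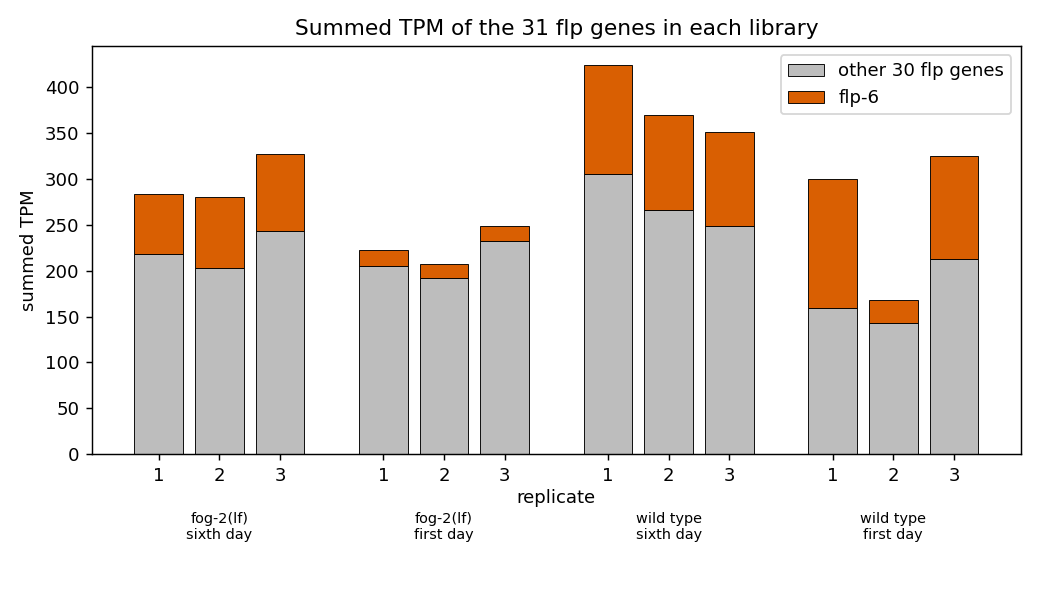
Summed TPM of the 31 *flp* genes in each of the 12 libraries, with *flp-6* (orange) stacked on the other 30 genes (grey). The *flp-6* part is 65.7 to 84.2 TPM in sixth-day *fog-2(lf)* and 14.9 to 17.1 TPM in first-day *fog-2(lf)*, and in first-day wild type it is 25.2 TPM in replicate 2 against 140 and 113 TPM in replicates 1 and 3.

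Across the 4 groups, most members shared 1 feature: the group with the lowest mean CPM was first-day wild type for 23 of the 30 members (76.7%), while it was the lowest for 28% of all genes tested. The exceptions were *flp-6* and *flp-10*, lowest in first-day *fog-2(lf)*; *flp-22*, *flp-24* and *flp-28*, lowest in sixth-day wild type; and *flp-17* and *flp-33*, lowest in sixth-day *fog-2(lf)*. The group with the highest mean was sixth-day *fog-2(lf)* for 8 members, first-day *fog-2(lf)* for 6, sixth-day wild type for 12 and first-day wild type for 4, and these groups were the highest for 22.8%, 20.9%, 26.2% and 30.1% of all genes tested.

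In sixth-day adults, *fog-2(lf)* and wild type differed in 1 of the 30 members tested. The call rule was a Benjamini-Hochberg adjusted p under 0.1 over all 14577 genes in edgeR's quasi-likelihood test, and it called 20.3% of all genes in this comparison, 9.83% higher and 10.4% lower. The 1 member called was *flp-25*, for which no function is given here. It had 0.927, 0.678 and 0.818 CPM in sixth-day *fog-2(lf)*, against 2.66, 3.67 and 3.27 CPM in sixth-day wild type. All sixth-day *fog-2(lf)* libraries lay below all sixth-day wild type libraries, and the fitted level was 3.96-fold lower (log2 fold change -1.98 ± 0.29 SE, edgeR quasi-likelihood adjusted p = 0.005). The call held in 22 of 22 other settings.

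None of the 30 members was called higher in sixth-day *fog-2(lf)*. At an unadjusted p under 0.05, edgeR gave 0 higher and 3 lower. At an adjusted p under 0.1, DESeq2 called 0 higher and 3 lower, and 12.4% of all genes higher and 11.5% lower. Limma on log2(TPM + 0.5) called 0 higher and 5 lower at that threshold, and 2.61% of all genes higher and 24.4% lower. The median log2 fold change over the members was -0.11, against -0.02 over all genes tested. The libraries of the 2 genotypes did not overlap for 8 members, 3 higher and 5 lower in *fog-2(lf)*, while 21.2% of all genes were higher and 22.7% lower without overlap. A fit to the 6 sixth-day libraries alone called 6 members, *flp-6*, *flp-15*, *flp-16*, *flp-21* and *flp-25* lower and *flp-34* higher, and 34.4% of all genes, 16% higher and 18.4% lower. The count also moved when a library outside the comparison was dropped: it was 2 without replicate 1 of first-day wild type, 4 without replicate 2 and 2 without replicate 3. The fit without replicate 2 called 28.2% of all genes, 13.4% higher and 14.8% lower.

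Next to the threshold lay *flp-15* and *flp-16*. *flp-15*, whose peptides act on the receptor NPR-3, had 2.28, 2.2 and 1.86 CPM in sixth-day *fog-2(lf)*, against 3.74, 3.58 and 2.78 CPM in sixth-day wild type (log2 fold change -0.67 ± 0.26 SE, edgeR adjusted p = 0.109). *flp-16* had 3.03, 2.97 and 3.34 CPM in sixth-day *fog-2(lf)*, against 4.29, 4.9 and 3.97 CPM in sixth-day wild type (-0.49 ± 0.21 SE, edgeR adjusted p = 0.135). Neither gene's libraries overlapped. *flp-34*, which encodes a neuropeptide Y-like peptide known from aversive olfactory learning, had 1.89, 2.37 and 1.86 CPM in sixth-day *fog-2(lf)*, against 1.42, 1.42 and 0.978 CPM in sixth-day wild type (0.68 ± 0.37 SE, edgeR adjusted p = 0.248) and did not pass.

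Of the 29 members that did not pass, 19 had a 95% interval of the log2 fold change that stayed within -1 and 1, which excludes a 2-fold difference in either direction for that member. The intervals of the other 10 reached past 2-fold, among them *flp-6* (-1.25 to 0.67), *flp-21* (-1.54 to 0.10), *flp-33* (-1.62 to 0.45) and *flp-34* (-0.14 to 1.5). For those 10 the intervals do not exclude a 2-fold difference.

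**Figure D2:**
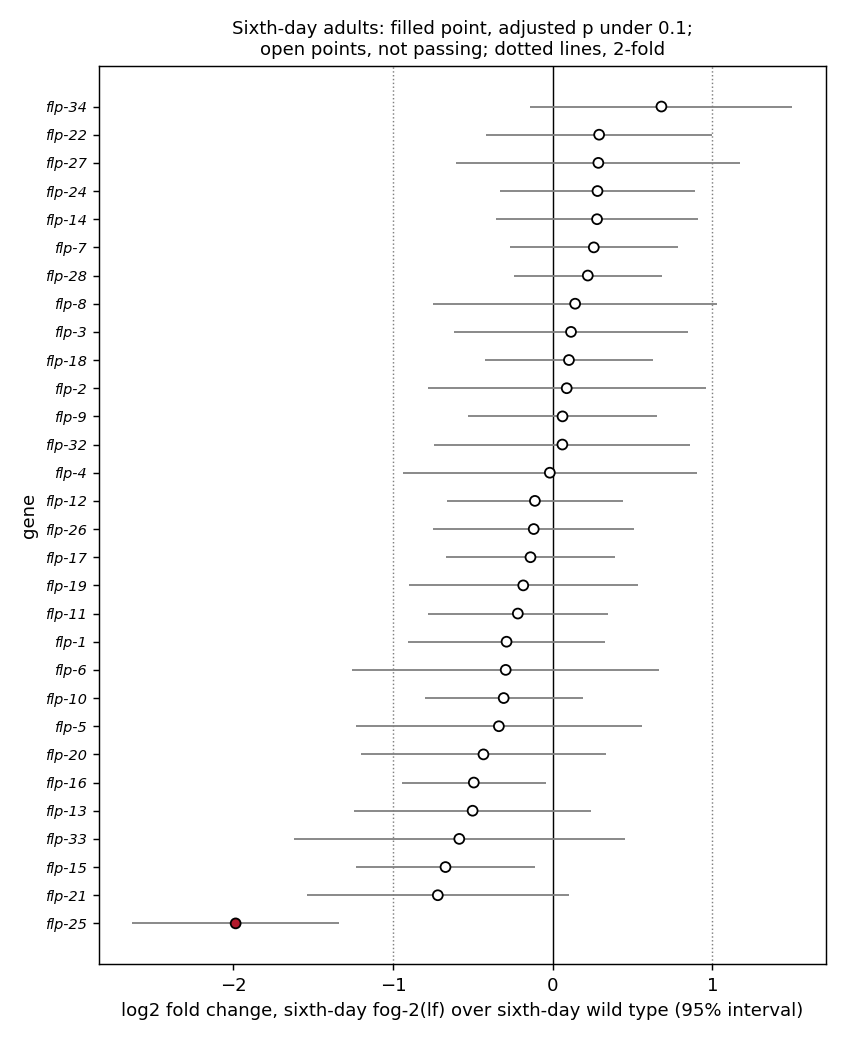
Log2 fold change of sixth-day *fog-2(lf)* over sixth-day wild type for the 30 members tested, with 95% intervals (lines); the filled point passed an adjusted p under 0.1 and the open points did not. *flp-25* lies at -1.98 and the open points lie between -0.72 and 0.68, with the interval of *flp-15* (-1.23 to -0.11) and that of *flp-16* (-0.94 to -0.04) short of 0.

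With age in *fog-2(lf)*, sixth day against first day, 2 of the 30 members rose, *flp-6* and *flp-10*, while 39.2% of all genes were called, 18% higher and 21.1% lower. *flp-6* had 44.2, 48.1 and 51.2 CPM in sixth-day *fog-2(lf)*, against 11.5, 9.33 and 11.6 CPM in *fog-2(lf)* on the first day. The libraries of each day were tight and far apart, a 4.43-fold increase (log2 fold change 2.15 ± 0.46 SE, edgeR quasi-likelihood adjusted p = 0.00519) that held in 22 of 22 other settings.

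*flp-10* encodes a peptide that acts on the receptor EGL-6 to inhibit egg laying. It had 5.49, 6.58 and 7.68 CPM in sixth-day *fog-2(lf)*, against 4.7, 3.92 and 4.18 CPM in *fog-2(lf)* on the first day, with every sixth-day library above every first-day library. The increase was 1.55-fold (log2 fold change 0.63 ± 0.23 SE, edgeR adjusted p = 0.0571). It missed the threshold when replicate 2 or 3 of either day was left out of *fog-2(lf)*, with adjusted p from 0.117 to 0.195, and the count of members called was then 1.

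The other 28 members had log2 fold changes between -0.88 and 0.90 with age in *fog-2(lf)*, and 18 of them had 95% intervals within 2-fold. No member was called lower, and edgeR gave 0 lower at an unadjusted p under 0.05. At an adjusted p under 0.1, DESeq2 called 3 higher and 0 lower, and 20% of all genes higher and 20.5% lower. Limma on log2(TPM + 0.5) called 2 higher and 0 lower, and 18.6% of all genes higher and 16.7% lower. The median over the members was 0.01, against -0.03 over all genes. The libraries of the 2 days did not overlap for 5 members higher and 2 lower on the sixth day, while 23.9% of all genes were higher and 26.6% lower without overlap. Without replicate 2 of first-day wild type, a library outside this comparison, 4 members were called higher, with *flp-5* (0.90, edgeR adjusted p = 0.0253) and *flp-34* (0.65, edgeR adjusted p = 0.0581) added. Of all genes, 20.5% were then called higher. A fit to the 6 *fog-2(lf)* libraries alone also called 4 members higher, and 22.5% of all genes higher.

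With age in wild type, sixth day against first day, 14 of the 30 members rose and 1 fell, while 48.8% of all genes were called, 23.4% higher and 25.4% lower. The members that rose were *flp-1*, *flp-3*, *flp-5*, *flp-7*, *flp-8*, *flp-9*, *flp-13*, *flp-14*, *flp-15*, *flp-16*, *flp-18*, *flp-21*, *flp-25* and *flp-26*. The median over the members was 0.65, against -0.0029 over all genes, and 25 of the 30 members had a positive log2 fold change. All sixth-day libraries lay above all first-day libraries for 16 members and below them for 1, while 24.4% of all genes were higher and 24.1% lower without overlap.

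*flp-25* rose most. It had 2.66, 3.67 and 3.27 CPM in sixth-day wild type, against 0.252, 0.168 and 0.345 CPM in first-day wild type, where these levels rest on 7, 5 and 6 counts. This was a 12.8-fold increase (log2 fold change 3.68 ± 0.34 SE, edgeR adjusted p = 2.61e-05). *flp-5*, whose peptides are known to excite the pharynx, had 4.85, 4.45 and 4.65 CPM in sixth-day wild type, against 0.432, 1.45 and 0.403 CPM in first-day wild type (5.9-fold, 2.56 ± 0.45 SE, edgeR adjusted p = 0.00121). The highest first-day wild type value of *flp-5* was that of replicate 2, and without it the log2 fold change was 3.45 (edgeR adjusted p = 8.47e-05).

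*flp-13* is expressed in the ALA neuron and is needed for sleep after cellular stress. It had 2.07, 1.35 and 1.16 CPM in sixth-day wild type, against 0.288, 0.539 and 0.288 CPM in first-day wild type (4.01-fold, 2.0 ± 0.38 SE, edgeR adjusted p = 0.00164). *flp-15* had 3.74, 3.58 and 2.78 CPM in sixth-day wild type, against 0.576, 0.943 and 1.15 CPM in first-day wild type (3.82-fold, 1.93 ± 0.28 SE, edgeR adjusted p = 0.000336). *flp-1*, which acts in locomotion and is released by the AVK interneurons, had 12.6, 8.02 and 7.03 CPM in sixth-day wild type, against 1.83, 3.47 and 2.47 CPM in first-day wild type (3.54-fold, 1.82 ± 0.30 SE, edgeR adjusted p = 0.00075). In all of these genes the libraries of the 2 days did not overlap.

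The 1 member that fell with age in wild type was *flp-28*. It had 9.7, 7.89 and 7.4 CPM in sixth-day wild type, against 17.3, 11.8 and 22.8 CPM in first-day wild type, a 2.07-fold decrease (log2 fold change -1.05 ± 0.21 SE, edgeR adjusted p = 0.00262). Replicate 2 was the lowest first-day library here and still lay above all sixth-day wild type libraries. *flp-28* had 9.27, 9.95 and 9.88 CPM in sixth-day *fog-2(lf)* and 11.6, 11 and 13 CPM in *fog-2(lf)* on the first day, and did not pass the test between those groups.

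The remaining increases in wild type ran between 1.59-fold (*flp-26*) and 3.02-fold (*flp-21*), and some calls did not hold in other settings. The calls of *flp-26* (edgeR adjusted p = 0.0961) and *flp-8* (edgeR adjusted p = 0.0958) were lost in 16 and 13 of 22 other settings, and those of *flp-3*, *flp-14* and *flp-9* in 5, 4 and 2. *flp-1*, *flp-5*, *flp-7*, *flp-13*, *flp-15*, *flp-16*, *flp-18*, *flp-21*, *flp-25* and *flp-28* kept theirs in 22 of 22. For *flp-6*, replicate 2 of first-day wild type decided the outcome. Its level was 66.5, 55.8 and 53.7 CPM in sixth-day wild type, against 103, 17.3 and 82.9 CPM in first-day wild type (log2 fold change -0.20 ± 0.47 SE, edgeR adjusted p = 0.739), and -0.67 (edgeR adjusted p = 0.0029) without replicate 2. Without that library *flp-22* (-0.91, edgeR adjusted p = 0.00746) and *flp-24* (-0.52, edgeR adjusted p = 0.0603) were also called lower, and *flp-26* was no longer called.

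Among first-day adults, *fog-2(lf)* stood above wild type in 10 of the 30 members and below it in 2, while 18.3% of all genes were called, 7.73% higher and 10.6% lower. This comparison and that of age in wild type share the 3 first-day wild type libraries, so their values are not independent. The members called higher were *flp-1*, *flp-5*, *flp-7*, *flp-13*, *flp-14*, *flp-15*, *flp-16*, *flp-18*, *flp-25* and *flp-32*, and the median over the members was 0.63, against -0.01 over all genes. The genotypes did not overlap for 14 members higher and 2 lower in *fog-2(lf)*, while 12.8% of all genes were higher and 13.4% lower without overlap.

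*flp-15* had 3.03, 2.48 and 2.87 CPM in *fog-2(lf)* on the first day, against 0.576, 0.943 and 1.15 CPM in first-day wild type (3.17-fold, 1.66 ± 0.28 SE, edgeR adjusted p = 0.00721). *flp-7*, whose peptide drives fat loss through a receptor in the intestine, had 1.64, 1.87 and 2.32 CPM in *fog-2(lf)* on the first day, against 0.648, 0.842 and 0.691 CPM in first-day wild type (2.65-fold, 1.41 ± 0.25 SE, edgeR adjusted p = 0.00947). The libraries of both genes were apart between the genotypes, and both calls held in 22 of 22 other settings. *flp-25* had 0.676, 0.64 and 0.947 CPM in *fog-2(lf)* on the first day, above 0.345 CPM, the highest first-day wild type library (3.02-fold, 1.59 ± 0.35 SE, edgeR adjusted p = 0.0189). *flp-13* had 0.901, 1.31 and 1.01 CPM in *fog-2(lf)* on the first day, above 0.539 CPM, the highest first-day wild type library (2.82-fold, 1.5 ± 0.38 SE, edgeR adjusted p = 0.032). *flp-5* had 1.77, 1.52 and 2.65 CPM in *fog-2(lf)* on the first day, all above the first-day wild type library closest to them, replicate 2 at 1.45 CPM (2.51-fold, 1.33 ± 0.45 SE, edgeR adjusted p = 0.0828). Without replicate 2 the log2 fold change of *flp-5* was 2.22 (edgeR adjusted p = 0.00382).

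The 2 members called lower in first-day *fog-2(lf)* were *flp-6* and *flp-10*. This comparison and that of age in *fog-2(lf)*, where both genes rose, share the 3 *fog-2(lf)* libraries of the first day. *flp-6* had 11.5, 9.33 and 11.6 CPM in *fog-2(lf)* on the first day, against 103, 17.3 and 82.9 CPM in first-day wild type, a 6.26-fold lower level (log2 fold change -2.65 ± 0.47 SE, edgeR adjusted p = 0.00922). Even replicate 2 of first-day wild type lay above all first-day *fog-2(lf)* libraries, and the difference was -3.11 without it. *flp-10* had 4.7, 3.92 and 4.18 CPM in *fog-2(lf)* on the first day, against 8.42, 5.9 and 10.4 CPM in first-day wild type, a 1.93-fold lower level without overlap (-0.95 ± 0.23 SE, edgeR adjusted p = 0.0281).

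A fit to the 6 first-day libraries alone called 3 members, *flp-7* and *flp-15* higher and *flp-6* lower, and 4.57% of all genes. In the other settings the weakest first-day calls were those of *flp-14* and *flp-32*, lost in 14 of 22 each, and of *flp-5*, lost in 13 of 22. Without replicate 2 of first-day wild type, 11 members were called higher and 4 lower, with *flp-28* (-0.76, edgeR adjusted p = 0.0135) and *flp-22* (-0.63, edgeR adjusted p = 0.0752) among those lower. That fit called 10.1% of all genes higher and 14.5% lower.

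The age by genotype interaction is the change with age in *fog-2(lf)* minus the change with age in wild type, both on the log2 scale, and was called for 7 of the 30 members, 1 higher and 6 lower, while 15.3% of all genes were called, 7.35% higher and 7.9% lower. The 6 members with a lower interaction were *flp-1*, *flp-7*, *flp-13*, *flp-15*, *flp-16* and *flp-25*. All 6 also rose with age in wild type and stood higher in first-day *fog-2(lf)* than in first-day wild type, comparisons that share the first-day wild type libraries with the interaction. The median interaction over the members was -0.67, against 0.02 over all genes.

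*flp-25* had the most negative interaction, -3.58 ± 0.45 SE (edgeR adjusted p = 0.00774). It had 0.927, 0.678 and 0.818 CPM in sixth-day *fog-2(lf)* and 0.676, 0.64 and 0.947 CPM in *fog-2(lf)* on the first day, with overlap, while its wild type libraries were far apart between the days. For *flp-15* the interaction was -2.33 ± 0.38 SE (edgeR adjusted p = 0.0142), with 2.28, 2.2 and 1.86 CPM in sixth-day *fog-2(lf)* and 3.03, 2.48 and 2.87 CPM in *fog-2(lf)* on the first day. For *flp-13* it was -2.0 ± 0.51 SE (edgeR adjusted p = 0.0403), with 1.28, 0.819 and 1.14 CPM in sixth-day *fog-2(lf)* and 0.901, 1.31 and 1.01 CPM in *fog-2(lf)* on the first day.

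*flp-16*, with an interaction of -1.51 ± 0.30 SE (edgeR adjusted p = 0.0211), had 3.03, 2.97 and 3.34 CPM in sixth-day *fog-2(lf)* and 3.03, 3.01 and 3.56 CPM in *fog-2(lf)* on the first day. In wild type it had 4.29, 4.9 and 3.97 CPM on the sixth day, against 1.26, 1.92 and 1.55 CPM on the first day. Its last exon shares 14 bases with that of *romo-1* on the opposite strand, and the library kit does not keep strand. *flp-1* had 7.67, 6.27 and 8.67 CPM in sixth-day *fog-2(lf)* and 6.02, 5.12 and 7.8 CPM in *fog-2(lf)* on the first day (interaction -1.57 ± 0.41 SE, edgeR adjusted p = 0.0437). *flp-7* had 1.46, 1.81 and 1.61 CPM in sixth-day *fog-2(lf)* and 1.64, 1.87 and 2.32 CPM in *fog-2(lf)* on the first day, and 1.45, 1.26 and 1.38 CPM in sixth-day wild type (interaction -1.15 ± 0.35 SE, edgeR adjusted p = 0.0653). The call of *flp-7* was lost in 10 of 21 other settings and that of *flp-1* in 1.

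*flp-6* was the 1 member with a higher interaction, 2.35 ± 0.63 SE (edgeR adjusted p = 0.047). Its 2 genotypes were far apart on the first day and lay close on the sixth, at 44.2, 48.1 and 51.2 CPM in sixth-day *fog-2(lf)*, against 66.5, 55.8 and 53.7 CPM in sixth-day wild type. The interaction was 2.81 (edgeR adjusted p = 0.000142) when replicate 2 of first-day wild type was left out and missed the threshold in 4 of 21 other settings: without replicate 2 of sixth-day wild type (edgeR adjusted p = 0.107) and in limma on log2(TPM + 0.5), with 0.1 or with 1 as the offset (adjusted p = 0.114, 0.114 and 0.118). Leaving replicate 2 out of first-day wild type gave 12 members that had a called interaction, 5 higher and 7 lower. Of all genes, 22.1% were then called, 11.8% higher and 10.3% lower. The added members were *flp-10* (0.84), *flp-22* (0.92), *flp-24* (0.75) and *flp-28* (0.98) on the higher side and *flp-5* (-2.56) on the lower side. The part of this library in the results was not tested beyond leaving it out.

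**Figure D3:**
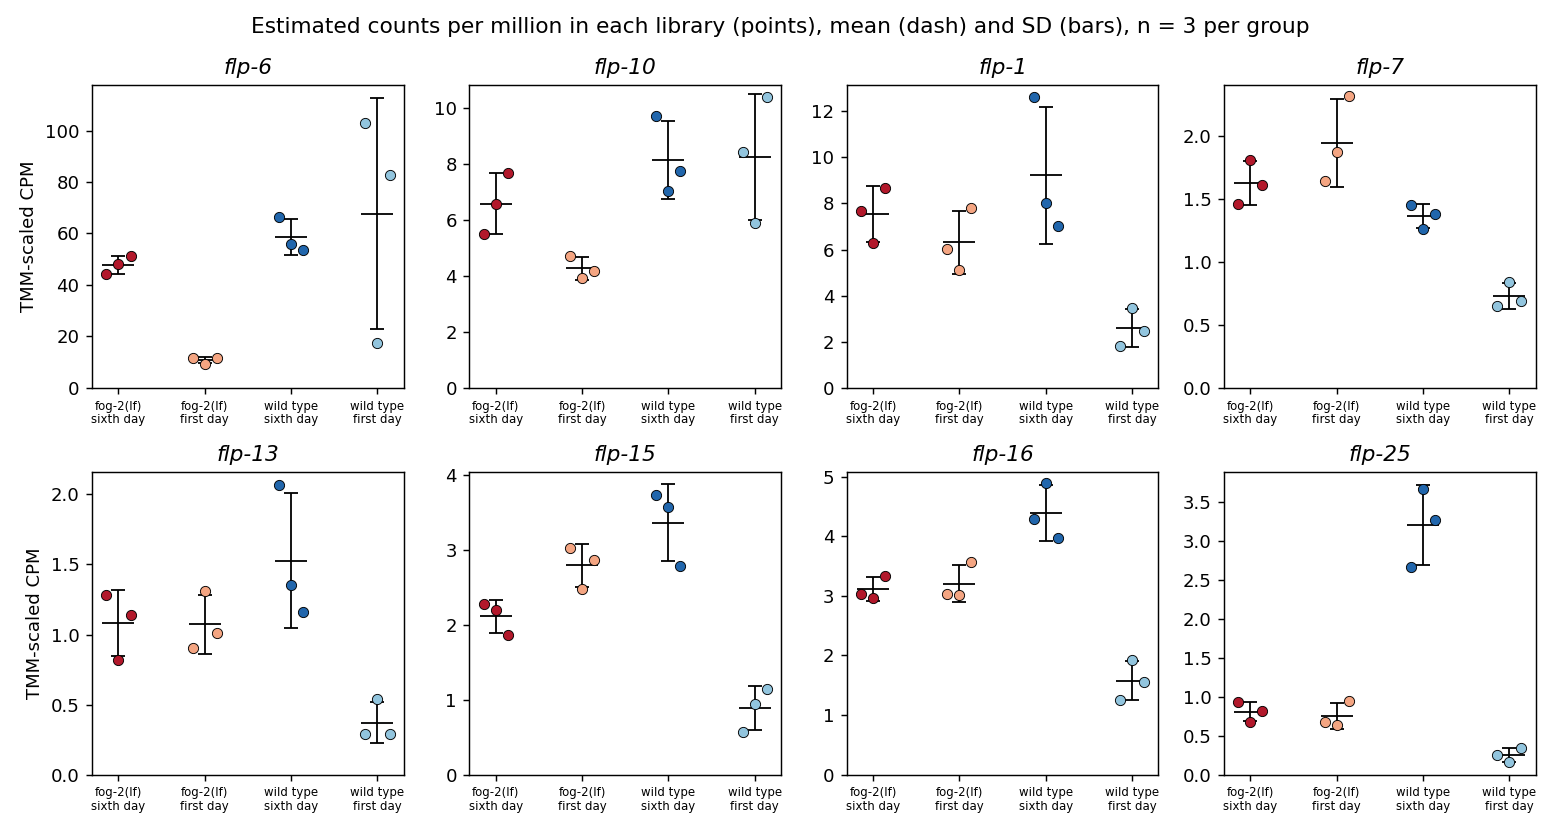
TMM-scaled CPM of *flp-6*, *flp-10* and the 6 members with a lower interaction, 1 point per library, with the mean (dash) and SD (bars) of 3 libraries in each group, sixth-day and first-day *fog-2(lf)* to the left of sixth-day and first-day wild type. In the 6 genes *flp-1*, *flp-7*, *flp-13*, *flp-15*, *flp-16* and *flp-25*, all first-day wild type points lie below the points of the other 3 groups; in *flp-6*, first-day wild type spreads between 17.3 and 103 CPM.

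**Figure D4:**
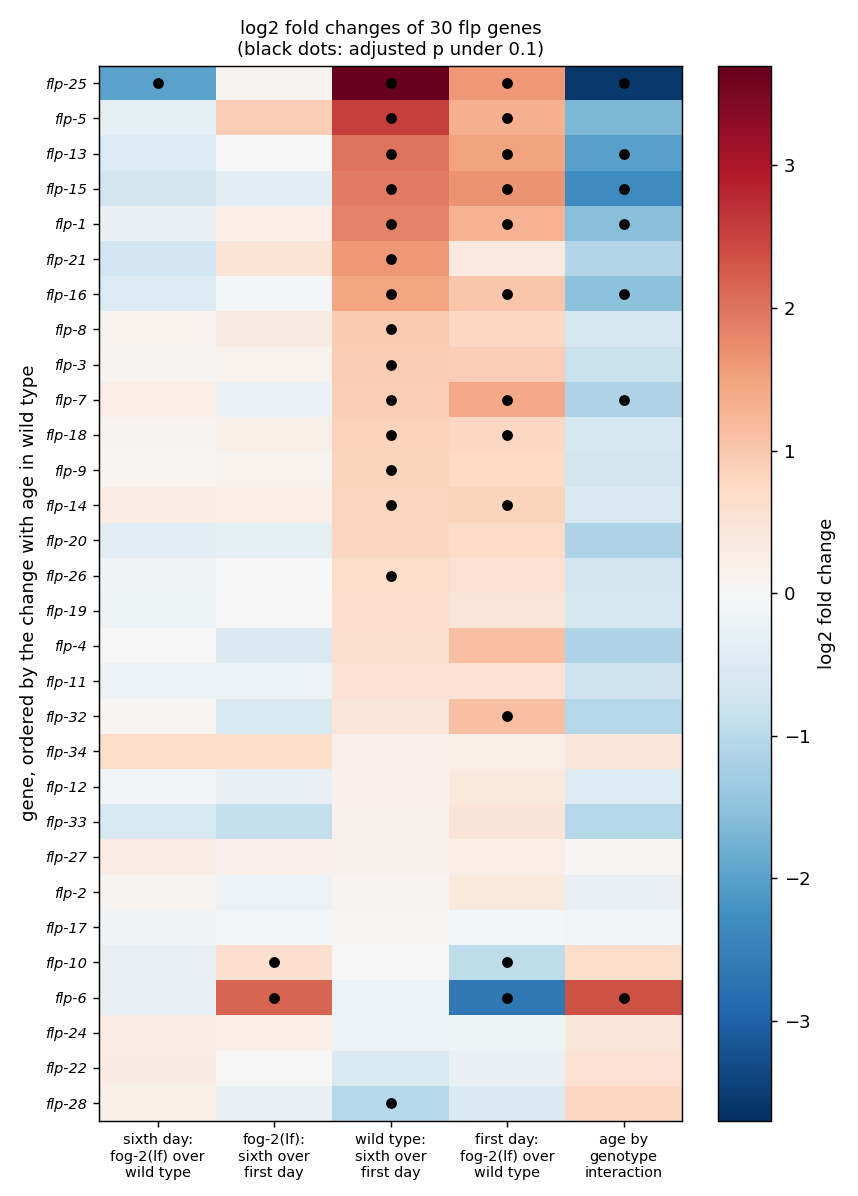
Log2 fold changes of the 30 members tested (rows, ordered by the change with age in wild type) in the 5 comparisons (columns), red for higher and blue for lower; a black dot marks an adjusted p under 0.1. The column of age in wild type holds 15 dots and the first-day column 12, against 1 dot in the sixth-day column and 2 in the column of age in *fog-2(lf)*. Of all genes, 48.8%, 18.3%, 20.3% and 39.2% were called in these 4 comparisons, in that order. Fits to only the libraries compared called 11, 3, 6 and 4 members, and 39.8%, 4.57%, 34.4% and 47.8% of all genes.

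Over all 5 comparisons of the edgeR fit 18 members were called at least once and 12 in none: *flp-2*, *flp-4*, *flp-11*, *flp-12*, *flp-17*, *flp-19*, *flp-20*, *flp-22*, *flp-24*, *flp-27*, *flp-33* and *flp-34*. Of these 12, 9 were called in at least 1 other setting, and *flp-2*, *flp-27* and *flp-33* in none of those run on gene sums. Besides *flp-13*, *flp-11*, the peptide gene of the RIS sleep neuron, averaged 3.22 ± 0.517 CPM in sixth-day *fog-2(lf)*, 3.73 ± 1.28 CPM in *fog-2(lf)* on the first day, 3.74 ± 0.558 CPM in sixth-day wild type and 2.58 ± 0.22 CPM in wild type on the first day (SD, n = 3 each). *flp-24*, which acts with *flp-13* in the ALA neuron, averaged 5.3 ± 0.386, 4.51 ± 0.254, 4.37 ± 0.264 and 5.1 ± 2.31 CPM in these 4 groups. Neither was called in any comparison of the edgeR fit. With age in wild type, *flp-11* was called higher by DESeq2 (0.55, adjusted p = 0.0996), with library totals (0.97, edgeR adjusted p = 0.00738) and by limma on log2(TPM + 0.5) (0.87, adjusted p = 0.00582), and *flp-24* was called lower without replicate 2 of first-day wild type, as given above. *flp-11* shares 37 exonic bases with *tmem-135* on the opposite strand, so a few of its reads may belong to that gene.

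Of the EGL-6 ligands that inhibit egg laying, *flp-10* changed as given above. *flp-17*, made in the carbon dioxide-sensing BAG neurons, averaged 2.71 ± 0.475 CPM in sixth-day *fog-2(lf)*, 2.8 ± 0.285 CPM in *fog-2(lf)* on the first day, 2.99 ± 0.574 CPM in sixth-day wild type and 2.88 ± 0.647 CPM in wild type on the first day, with libraries that overlapped between all 4 groups. Of the genes known from the turning of males during mating, *flp-8*, *flp-10*, *flp-12* and *flp-20*, none was called between the genotypes on the sixth day by edgeR, while limma on log2(TPM + 0.5) called *flp-10* lower in *fog-2(lf)* (-0.52, adjusted p = 0.0987). *flp-12* averaged 3.28 ± 0.599 CPM in sixth-day *fog-2(lf)* and 3.53 ± 0.91 CPM in sixth-day wild type, and *flp-20*, a gene of touch neurons, 0.94 ± 0.144 CPM in sixth-day *fog-2(lf)* and 1.27 ± 0.618 CPM in sixth-day wild type.

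The ligands of the foraging receptor NPR-1, *flp-18* and *flp-21*, both rose with age in wild type. *flp-18* averaged 9.1 ± 2.49 CPM in sixth-day wild type, against 5.01 ± 1.18 CPM in first-day wild type (1.82-fold, edgeR adjusted p = 0.0161), and stood at 9.77 ± 1.95 CPM in sixth-day and 8.47 ± 0.748 CPM in *fog-2(lf)* on the first day. *flp-21* averaged 1.67 ± 0.191 CPM in sixth-day wild type, against 0.538 ± 0.224 CPM in first-day wild type (3.02-fold, edgeR adjusted p = 0.00821). In sixth-day *fog-2(lf)* the libraries of *flp-21* had 1.18, 0.735 and 1.14 CPM, all below the 1.48, 1.68 and 1.87 CPM of sixth-day wild type (log2 fold change -0.72 ± 0.37 SE, edgeR adjusted p = 0.224). *flp-2*, known from arousal, ranged between 0.622 and 1.29 CPM in sixth-day *fog-2(lf)* and between 0.489 and 1.19 CPM in sixth-day wild type.

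Gene position and isoforms are given next. On the X chromosome lay 13 of the 31 members, 43.3% of those tested against 14.3% of all genes tested. Of the 13 X-linked members 6 rose and 1 fell with age in wild type, where 23.4% of all genes rose and 25.4% fell. Among the 30 members tested on all chromosomes 14 rose and 1 fell, so the share that rose on X was close to that of the family. *flp-28*, *flp-3* and *flp-2* lie next to each other on the minus strand of X, between 10087314 and 10095245 in WBcel235, a span of 7.93 kb. Their changes with age in wild type differed: *flp-28* fell, *flp-3* rose 1.94-fold (edgeR adjusted p = 0.0501), and *flp-2* did not pass the test.

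Of the members with several isoforms, some had 2 in use, among them *flp-1*, *flp-8*, *flp-11* and *flp-22*. In sixth-day *fog-2(lf)* the 2 averaged 2.48 and 1.56 TPM for *flp-8*, 4.23 and 2.88 TPM for *flp-11* and 24.7 and 3.41 TPM for *flp-22*. Those of *flp-1* follow in all groups. Isoform F23B2.5a averaged 6.62 ± 1.19 TPM in sixth-day *fog-2(lf)*, 4.23 ± 0.922 TPM in first-day *fog-2(lf)*, 7.94 TPM in sixth-day wild type and 1.27 ± 0.555 TPM in first-day wild type. Isoform F23B2.5b averaged 7.64 ± 1.46, 6.69 ± 3.61, 12.5 ± 5.02 and 3.2 ± 1.18 TPM in the same 4 groups. Both rose with age in wild type when isoforms were tested (edgeR adjusted p = 0.00241 and 0.03). The third isoform of *flp-1* was above 0 in a single library, replicate 1 of *fog-2(lf)* on the first day. The short and long forms share most of their sequence, so the division of reads between them is an estimate.

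The genes that make and release the peptides were looked at next, as a list of 14 genes of peptide processing and dense-core vesicles. With age in wild type 8 of the 14 rose and 3 fell, with a list median of 0.35, while 23.4% of all genes rose and 25.4% fell. Limma on log2(TPM + 0.5) called 9 of the 14 higher and 0 lower, and 52% of all genes higher and 12.3% lower. *unc-31*, the CAPS protein needed for dense-core vesicle release, rose by 1.29 ± 0.30 on the log2 scale (edgeR adjusted p = 0.00591), *pgal-1*, an amidating enzyme, by 0.85 ± 0.24 (edgeR adjusted p = 0.016), *sbt-1*, the 7B2 chaperone of the convertase, by 0.85 ± 0.16 (edgeR adjusted p = 0.00154), and *pghm-1*, the other amidating enzyme, by 0.77 ± 0.21 (edgeR adjusted p = 0.0131). *egl-21*, the carboxypeptidase that trims the cut peptides, was among those called lower (-0.39 ± 0.15 SE, edgeR adjusted p = 0.0675), but it turned to 0.04 with library totals and 0.0338 in limma, and *unc-108* (-0.21) to 0.21 and 0.20.

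Among first-day adults 6 of the 14 were higher in *fog-2(lf)* and 1 lower, with a median of 0.26, led by *unc-31* (1.01 ± 0.30 SE, edgeR adjusted p = 0.0559), *pgal-1* (0.91 ± 0.24 SE, edgeR adjusted p = 0.0383) and *pghm-1* (0.88 ± 0.21 SE, edgeR adjusted p = 0.0262). With age in *fog-2(lf)* 5 of the 14 fell, with a median of -0.30, among them *ida-1*, an IA-2 protein of dense-core vesicles (-0.64 ± 0.25 SE, edgeR adjusted p = 0.0762), and *egl-21* (-0.55 ± 0.15 SE, edgeR adjusted p = 0.0199). The interaction was lower for 6 of the 14, *egl-3*, *sbt-1*, *pgal-1*, *pghm-1*, *unc-31* and *ida-1*, between -1.27 and -0.81, with a median of -0.34 over the list. In sixth-day adults 1 of the 14 was called, *unc-108*, a Rab2 GTPase of vesicle maturation, lower in *fog-2(lf)* (-0.30 ± 0.08 SE, edgeR adjusted p = 0.0342), and the median was -0.24. There DESeq2 called 1 of the 14 lower and limma on log2(TPM + 0.5) called 7, while limma called 24.4% of all genes lower. Of all genes, edgeR called 7.73% higher and 10.6% lower in first-day *fog-2(lf)*, and 10.4% lower in sixth-day *fog-2(lf)*. With age in *fog-2(lf)* 21.1% of all genes fell, and 7.9% had a lower interaction.

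Of 22 receptors for FMRFamide-like peptides, 18 passed the filter. *dmsr-1*, which encodes a receptor of FLP-13 peptides, was the 1 receptor called in sixth-day adults. It averaged 0.613 CPM in sixth-day *fog-2(lf)*, against 1.23 CPM in sixth-day wild type (-0.99 ± 0.28 SE, edgeR adjusted p = 0.0451), and fell with age in *fog-2(lf)* (-1.57 ± 0.28 SE, edgeR adjusted p = 0.00194) with a negative interaction (-1.67 ± 0.40 SE, edgeR adjusted p = 0.0336). With age in *fog-2(lf)* 1 receptor rose, *frpr-15* (1.75 ± 0.52 SE), and *npr-5* (-1.38 ± 0.34 SE) and *frpr-19* (-1.06 ± 0.18 SE) fell besides *dmsr-1*. With age in wild type 2 receptors rose and 3 fell, and the FLP-15 receptor *npr-3* was among those that rose (1.47 ± 0.54 SE, edgeR adjusted p = 0.0494). First-day *fog-2(lf)* had 2 lower, *npr-10* (-1.97 ± 0.43 SE) and *frpr-9* (-1.27 ± 0.42 SE). Over all 12 libraries *npr-3* had 107 counts, *frpr-15* 133, *npr-10* 179 and *frpr-9* 95, so their changes rest on few reads. *dmsr-1*, *npr-5* and *frpr-19* had 448, 728 and 1787 counts. The receptor medians were -0.22 in sixth-day adults, -0.35 and -0.23 with age in *fog-2(lf)* and in wild type, 0.18 in first-day adults and -0.21 for the interaction. Of all genes, 10.4% were called lower in sixth-day and 10.6% in first-day *fog-2(lf)*. With age 18% rose and 21.1% fell in *fog-2(lf)*, and 23.4% rose and 25.4% fell in wild type. A lower interaction was called for 7.9%. The receptor counts lay near or below these shares.

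Genes that most neurons express moved with the members in part, and their share in the results above was not tested. Of the 18 pan-neuronal genes, 6 were lower in sixth-day *fog-2(lf)* than in sixth-day wild type (median -0.43), 5 fell with age in *fog-2(lf)* (median -0.38), 7 rose and 1 fell with age in wild type (median 0.20), 1 was higher and 1 lower in first-day *fog-2(lf)* (median 0.18), and 5 had a lower interaction (median -0.61). Of all genes, edgeR called 10.4% lower in sixth-day *fog-2(lf)*, and 7.73% higher and 10.6% lower in first-day *fog-2(lf)*. With age 21.1% fell in *fog-2(lf)*, and 23.4% rose and 25.4% fell in wild type. A lower interaction was called for 7.9%. Limma on log2(TPM + 0.5) called 10 of the 18 lower in sixth-day *fog-2(lf)*, 13 higher and 0 lower with age in wild type and 10 lower for the interaction, beside 24.4% of all genes lower, 52% higher and 23.4% lower in the same comparisons. The active zone gene *cla-1* changed most, with an interaction of -3.73 ± 0.76 SE (edgeR adjusted p = 0.023). The male neuron gene *lov-1* was lower in sixth-day *fog-2(lf)* at 0.00826 CPM, against 0.312 CPM in sixth-day wild type, on 46 counts over all 12 libraries. Among markers of other tissues, 5 of 5 body-wall muscle genes and 3 of 5 intestine genes fell with age in *fog-2(lf)*, and 4 of 5 of each fell with age in wild type. Of 7 sperm genes tested 3 fell and 1 rose with age in wild type, and of 8 zygotic embryo genes 3 fell and 2 rose. Of the sperm genes, DESeq2 called 1 lower and 0 higher there, and limma on log2(TPM + 0.5) 1 lower and 1 higher. Their sum in first-day wild type was 4.28, 41.1 and 6.56 CPM, against 3.61 to 5.65 CPM in sixth-day wild type. It stood far above the sixth-day libraries in replicate 2 only.

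The scaling sets where no change lies. With library totals in place of TMM, the median of all genes with age in wild type moved to 0.42 and that of the members to 1.07, and 21 members were called higher and 1 lower. With age in wild type that fit called 52.2% of all genes higher and 12.2% lower. Of all calls, 48% were higher with TMM and 81% with library totals in that comparison. The corresponding shares were 48.5% and 16.4% in sixth-day adults, 46.1% and 62.1% with age in *fog-2(lf)*, 42.2% and 70.4% in first-day adults and 48.2% and 12.9% for the interaction. With library totals, 3 members were called lower in sixth-day *fog-2(lf)*, *flp-25*, *flp-15* and *flp-16*, and the median of all genes was -0.17 against -0.26 for the members. Of all genes, 15.9% were called lower there.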

How the data were processed

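RNA-seq of whole *C. elegans* adults was used, 3 libraries in each of 4 groups. For each isoform the authors deposited an estimated count (kallisto's expected number of reads, not scaled further) and its TPM, which the authors obtained from these counts and the effective lengths. Kallisto, sleuth and WBcel235 are named in the submitters' processing notes, with versions not given in the sources used here. Counts of reads that several isoforms or similar genes share are estimates, which adds error to low genes.

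Isoforms (32905) were matched to the Ensembl WBcel235 annotation by transcript name, or, for 1908, by the gene's sequence name alone, 310 matched no gene and were kept under their own names, counts were summed per gene and rounded to whole numbers. Genes kept by filterByExpr were scaled with TMM and fitted on all 12 libraries with edgeR 4.0.16 (quasi-likelihood; age, genotype and interaction; R 4.3.3), with Benjamini-Hochberg adjustment over 14577 genes and a threshold of 0.1. The biological coefficient of variation was 0.241. SE is the log2 fold change divided by the square root of F, and intervals are 95%. TMM factors ran between 0.821 and 1.17, and depth between 21162593 and 38775999 estimated counts. Coordinates are WBcel235.

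Members and lists (peptide processing and dense-core vesicles, receptors, pan-neuronal, male sensory neuron, sperm, embryo, muscle and intestine genes) were chosen by name and known function, with earlier results of these data known. Full values are given for every member called in the sixth-day comparison, in age in *fog-2(lf)* or in the interaction, and for the 5 largest called changes in each direction elsewhere, and for up to 4 called genes of a list. Values of other members were given beyond that rule, after they were seen.

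Alternatives were DESeq2 1.42.0, RLE factors, library totals, no filter, limma 3.58.1 on log2(TPM + 0.5) with offsets 0.1 and 1, an adjusted p under 0.05, isoforms, only the libraries compared, the replicate number as a block, and each library left out. On simulated data with 200 changed genes, the sixth-day test recovered 51% of 2-fold and 74% of 4-fold changes with 12 false calls, age in *fog-2(lf)* 51% and 86% with 10, and the interaction 35% and 58% with 6. Far more genes were called in the real data, and the rates cover genes of all levels. They therefore do not give the recovery for the members here.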

Additional observations from a re-analysis of the deposited data

Results flagged for a closer look

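The change with age differed between the genotypes for 7 members by the interaction term of the edgeR fit (change in *fog-2(lf)* minus change in wild type, log2 scale). The interaction was negative for *flp-1* (-1.57), *flp-7* (-1.15), *flp-13* (-2.0), *flp-15* (-2.33), *flp-16* (-1.51) and *flp-25* (-3.58). It was positive for *flp-6* (2.35). With 3 libraries a group, no test for a single outlying library was made.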

How the results depend on the processing

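Of the calls in sixth-day adults and in age in *fog-2(lf)*, *flp-25* and *flp-6* held in all 22 other settings and *flp-10* in 17. Members called in sixth-day adults numbered 1, against 3 with library totals, 3 with DESeq2, 5 with limma at each of the offsets 0.5, 0.1 and 1, 6 with only the libraries compared, and 1 to 4 with 1 library left out. For age in *fog-2(lf)* they numbered 2, against 4 with only the libraries compared, 1 at an adjusted p under 0.05, and 1 to 4 with 1 library left out. For age in wild type they numbered 15, and 10 to 17 with 1 library left out. For first-day adults they numbered 12, against 3 with only the libraries compared, and 8 to 15 with 1 library left out. For the interaction they numbered 7, against 11 with library totals, 17, 16 and 17 with limma at offsets 0.5, 0.1 and 1, 3 with isoforms, and 5 to 12 with 1 library left out. Of all genes, the edgeR fit called 20.3% in sixth-day adults. Library totals called 19% there, DESeq2 23.9%, limma at offset 0.5 27.1%, and only the libraries compared 34.4%. With age in *fog-2(lf)* the shares were 39.2% in the edgeR fit and 47.8% with only the libraries compared. In first-day adults they were 18.3% and 4.57%. For the interaction they were 15.3% in the edgeR fit, 21.9% with library totals and 26% with limma at offset 0.5. No interaction can be fitted on the libraries of 1 comparison. With age in wild type, *egl-21* (-0.39) turned to 0.04 with library totals and to 0.0338, 0.035 and 0.0323 with limma at offsets 0.5, 0.1 and 1, *unc-108* (-0.21) to 0.21 and 0.20, and *unc-18* (-0.25) to 0.17 with library totals. The cause of these differences was not tested. With the replicate number as a block, 1, 2, 13, 9 and 7 members were called in these comparisons, but the numbers do not pair the libraries: the correlation of deviations was over 0.1 in 4 of 18 same-number pairs (-0.13 to 0.161), and 4 of 12 libraries correlated best with their own number. Depth limits the members under 1 CPM most, such as *flp-33* and *flp-25* in first-day wild type.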
